A study of Mus musculus with 8 samples.

Results

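The genes described here carry and read out JAK-STAT5 signalling: the transcription factors Stat5a, Stat5b and Stat3, the kinases Jak1 and Jak2, the feedback inhibitors Cish, Socs2 and Socs3, the survival kinase Pim1 and the cytokine Osm. They were chosen by name, and every non-control probe that the scanner files give under one of these 10 gene names was taken, which gave 19 probes (28 spots) of the 41174 probes on the array, for 10 of its 27745 gene names. RNA (total) from hematopoietic stem cells (HSCs) of mouse bone marrow, strain B6, was labelled with Cy3 and hybridised to 8 Agilent 1-colour arrays, 1 sample per array. The arrays were 3 of NrasG12D/G12D cells (2 mutant alleles of the endogenous Nras gene), 3 of NrasG12D/+ cells (1 mutant allele) and 2 of Nras+/+ cells (no mutant allele), so the comparisons ask how the genes differ with the number of mutant alleles. The G12D form of the small GTPase Nras stays in its active state. The age and sex of the mice, any Cre driver, the sort gate and the number of animals behind each sample are not used here, as no source at hand gives them. The p-values below thus cover the spread between the samples, which may be technical.

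When a cytokine binds its receptor, the receptor-bound JAK kinases phosphorylate the receptor tail and the STAT proteins that dock there. STAT dimers then enter the nucleus and switch on target genes, among them the SOCS family members, which turn the pathway off again. In HSCs, cytokine signals that pass through Jak2 and the STAT5 proteins are known for maintaining the stem cell pool. Because activity of the pathway lies in phosphorylation, mRNA levels of its kinases and STATs do not measure it, and the target genes are its usual readout at the RNA level.

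STAT dimers bind the palindromic motif TTCNNNGAA, which reads the same on both strands. It was searched in the promoter windows of RefSeq (GRCm38.p6, 250 bases before to 50 bases after each gene start). Of 32851 windows, 2726 held it (8.3%) and 150 held at least 2 copies (0.457%). Promoters were in the table for 8 of the 10 genes, 11 windows in all, and 2 of these windows held the motif. They are shown because both belong to feedback targets, with the motif in capitals and each cut to 30 bases, the Cish window at chr9:107296654-107296683 on the plus strand and the Socs3 window at chr11:117969501-117969530 on the minus strand.
Cish promoter: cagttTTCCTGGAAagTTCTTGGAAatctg
Socs3 promoter: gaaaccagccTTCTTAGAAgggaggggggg
The 2 Cish copies lie at bases 1 to 20 after the start, and the Socs3 copy at bases -154 to -146. A match is a run of letters, not a shown binding site.

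The probes on which the values below turn are identified by their first 30 bases, 5′ to 3′, as the scanner files give them, all in lower case since no part of them is singled out. Their positions come from the same files, which name no genome build.
Stat5a A_51_P152765: gaggaaacctggggcgaaaaacctgtagca
Stat3 A_51_P201480: cactctgtgagctgataccccaggctggga
Stat3 A_52_P569499: atccatcacacagcccagtaaaccaggaag
Jak1 A_52_P106463: tttttcaccttttgagcccttttcccaaag
Jak1 A_52_P577180: ccaaagtctccgatcttcacttgatgctca
Socs3 A_51_P474459: ccttcgaggctgtctgaagatgcttgaaaa
Pim1 A_52_P535619: agtctaatgacgcccgagaagtccgagctc
Osm A_52_P348614: agcactgtgtacaccacactggacagagtc
The Stat5a probe, at chr11:100700920-100700979 on the plus strand, lies 259 bases from the Stat3 probe A_52_P569499, at chr11:100701238-100701297 on the minus strand, and the other Stat3 probe lies a further 3077 bases on, at chr11:100704374-100704433. Stat5a and Stat3 are neighbours on opposite strands.

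For 2 probes the strand in the files was opposite to that of the gene they are named for. The Jak1 probe A_52_P577180 lies on the plus strand at chr4:100654397-100654456, while Jak1 is on the minus strand. The Pim1 probe A_52_P535619 lies on the minus strand, while Pim1 is on the plus strand. In GRCm38.p6 the whole Pim1 probe sequence stands at chr17:29491682-29491741 on the minus strand, inside the span of Pim1 and at bases -197 to -138 relative to the start of Gm26885, a further annotated gene. By comparison, 99.6% of the 15782 array probes with a RefSeq mRNA accession lay on the strand of their gene, as did 96.2% of 4637 other probes. Values of these 2 probes are therefore given under the probe and are not read as Jak1 or Pim1 mRNA.

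A probe counted as measured on an array where Feature Extraction, the scanner software, marked most of its spots as well above background. On that basis 4 of the 19 probes were measured on all 8 arrays (Stat5a, both Stat3 probes and Jak1 A_52_P106463) and 7 on none. Between 5 and 10 of the 19 probes were measured per array, 6, 5 and 7 in NrasG12D/G12D, 8, 10 and 7 in NrasG12D/+, and 9 and 5 in Nras+/+. The 10 probes measured on at least 2 arrays, which stand for 8 genes, were tested. Stat5b and Cish have no tested probe.

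**Figure D1:**
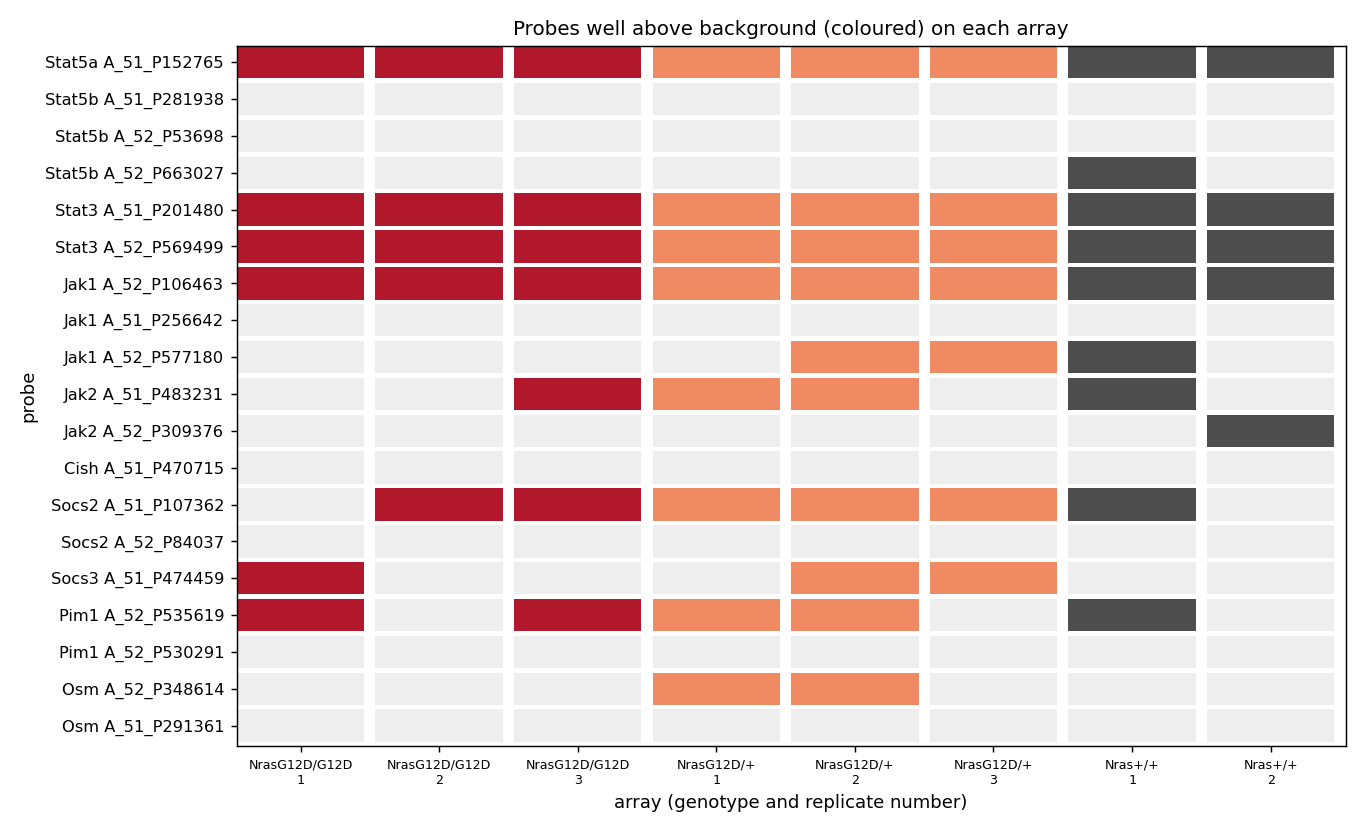
Detection of the 19 probes (rows) on the 8 arrays (columns, by genotype and replicate number), with coloured cells where the probe was well above background. Stat5a, both Stat3 probes and Jak1 A_52_P106463 are coloured on all 8 arrays, and 7 probes are coloured on none.

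Signals are given as scaled signals, the processed intensity after each array was scaled to a common 75th percentile, and a value compares arrays for 1 probe, not probes with each other. In bulk RNA, fewer cells of a type and less RNA per cell cannot be told apart. Over all probes the arrays differed in brightness, with a median processed signal of 3.09 to 6.75 and 26% to 42.4% of spots well above background, highest for NrasG12D/+ replicates 1 and 2. Of 18 HSC markers on the array, 7 were well above background on all arrays, including Ly6a and Slamf1, while Procr, Gata2, Tek and Robo4 were on none and Kit on 1. The summed scaled signal of the HSC markers was 1269 to 1921 in NrasG12D/G12D, 1277 to 1870 in NrasG12D/+ and 1380 to 1726 in Nras+/+. For the 10 mature neutrophil markers it was 38.8 to 29242 in NrasG12D/G12D, 107 to 13846 in NrasG12D/+ and 127 to 237 in Nras+/+, with Mmp9 well above background on all 8 arrays, Mmp8 on 5, Ngp on 3, Ltf and S100a9 on 2 each, Retnlg on 1, and Camp, S100a8, Lcn2 and Csf3r on none. The high sums were those of NrasG12D/G12D replicate 3 and NrasG12D/+ replicate 1. On these arrays 2 and 4 of the 10 markers were well above background, against 3 on each Nras+/+ array. The sums thus did not follow the number of markers detected.

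No tested probe of these genes passed the threshold in any of the 3 comparisons (limma, Benjamini-Hochberg adjusted p over all probes tested, threshold 0.05), and neither did any other probe on the array (0% called in each comparison). At an unadjusted p under 0.05, 1 of the 10 probes stood out in NrasG12D/+ against Nras+/+ (4.71% of all 18382 probes), 0 in NrasG12D/G12D against Nras+/+ (6.55% of 18327) and 1 in NrasG12D/G12D against NrasG12D/+ (6.01% of 18333). Groups did not overlap for 2, 3 and 1 of the probes in these comparisons, where 25.1%, 28.9% and 11.9% of all probes with at least 2 values in each group did not overlap. Jak1 A_52_P106463, with 1 usable NrasG12D/G12D array, could not be counted as such in the comparisons with that genotype. Of the probes without overlap, Socs3 A_51_P474459 was counted in both comparisons with Nras+/+, and Osm A_52_P348614 in both with NrasG12D/+. Both met the filter only through mutant arrays, where they were high, so their places in these counts are tied to it. The median log2 change of the 10 probes was -0.09, -0.34 and -0.35, beside -0.25, -0.46 and -0.22 for all probes. The members' counts and medians thus lay near the background. The standard error of a log2 change was between 0.65 and 1.29 for these probes, so that changes of 2-fold and well above could not be resolved. Even log2 changes of 2.38 (Osm A_52_P348614, NrasG12D/+ against Nras+/+) and -1.66 (Stat3 A_51_P201480, NrasG12D/G12D against Nras+/+) had adjusted p of 0.816 and 0.711 in limma.

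Slide and genotype overlapped. All 3 NrasG12D/G12D arrays and NrasG12D/+ replicate 3 were on slide 2, while NrasG12D/+ replicates 1 and 2 and both Nras+/+ arrays were on slide 1. Values within a slide or with the slide as a block are given below beside pooled ones. No slide holds both NrasG12D/G12D and Nras+/+, so for that comparison a value with the slide as a block rests on the NrasG12D/+ arrays, and the comparison within slide 2 sets 3 arrays against 1.

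Stat5a encodes one of the 2 STAT5 proteins. Its scaled signal was 57.2, 215 and 45.6 in NrasG12D/G12D, 34.3, 191 and 81 in NrasG12D/+, and 63.1 and 162 in Nras+/+. Every genotype held both a low and a high array, and the 3 groups overlapped over most of their range. The log2 change was -0.29 (SE 1.03, adjusted p = 0.944) in NrasG12D/G12D and -0.32 (SE 1.03, adjusted p = 0.941) in NrasG12D/+ against Nras+/+. Between the mutant genotypes it was 0.03 (SE 0.92, adjusted p = 0.997). Within slides the changes were the same to 2 decimals, -0.32 in NrasG12D/+ against Nras+/+ and 0.03 between the mutant genotypes.

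Stat5b, which encodes the other STAT5 protein, has 3 probes, all on the minus strand of chromosome 11. Probes A_51_P281938 and A_52_P53698 were well above background on no array, with scaled signals of 1.25 to 9.57 and 1.27 to 7.58. Probe A_52_P663027 was on 1 array, Nras+/+ replicate 1, where it had its highest signal, 12.9, while its lowest was 2.03. Stat5b was not measurable on these arrays at this signal over background, which is no statement that the gene is silent.

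Stat3, a STAT that answers cytokines of the interleukin 6 family, was measured with repeated spots, since probe A_51_P201480 is spotted 10 times on each array. Its scaled signal was 51, 102 and 76.5 in NrasG12D/G12D, 73.4, 41.8 and 260 in NrasG12D/+, and 153 and 354 in Nras+/+. All 3 NrasG12D/G12D arrays lay below both Nras+/+ arrays, as did NrasG12D/+ replicates 1 and 2, while NrasG12D/+ replicate 3 lay between the controls. The geometric mean was 73.7 in NrasG12D/G12D, 92.7 in NrasG12D/+ and 233 in Nras+/+. The log2 change was -1.66 (SE 0.93, adjusted p = 0.711, unadjusted 0.108) in NrasG12D/G12D and -1.33 (SE 0.93, adjusted p = 0.816) in NrasG12D/+ against Nras+/+.

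The repeated spots separate spotting error from the spread between samples. The median SD of the 8 to 10 usable spots within an array was 0.15 on the log2 scale, whereas the 8 array means had an SD of 1.1. Spots of NrasG12D/+ replicate 2 ran from 35.3 to 48.1 and those of Nras+/+ replicate 2 from 317 to 403. Differences between arrays of the same genotype, such as 41.8 and 260 within NrasG12D/+, were thus far wider than the spots within each.

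Within slide 1 the change of this probe in NrasG12D/+ against Nras+/+ was -2.07 (adjusted p = 0.571), and within slide 2 NrasG12D/G12D stood at -1.82 against the single NrasG12D/+ array (adjusted p = 0.975). With the slide as a block, NrasG12D/G12D against Nras+/+ came to -3.89 (adjusted p = 0.543). Without Nras+/+ replicate 2 it was -1.06. Against Nras+/+ the sign was negative in every setting tried for both mutant genotypes.

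**Figure D2:**
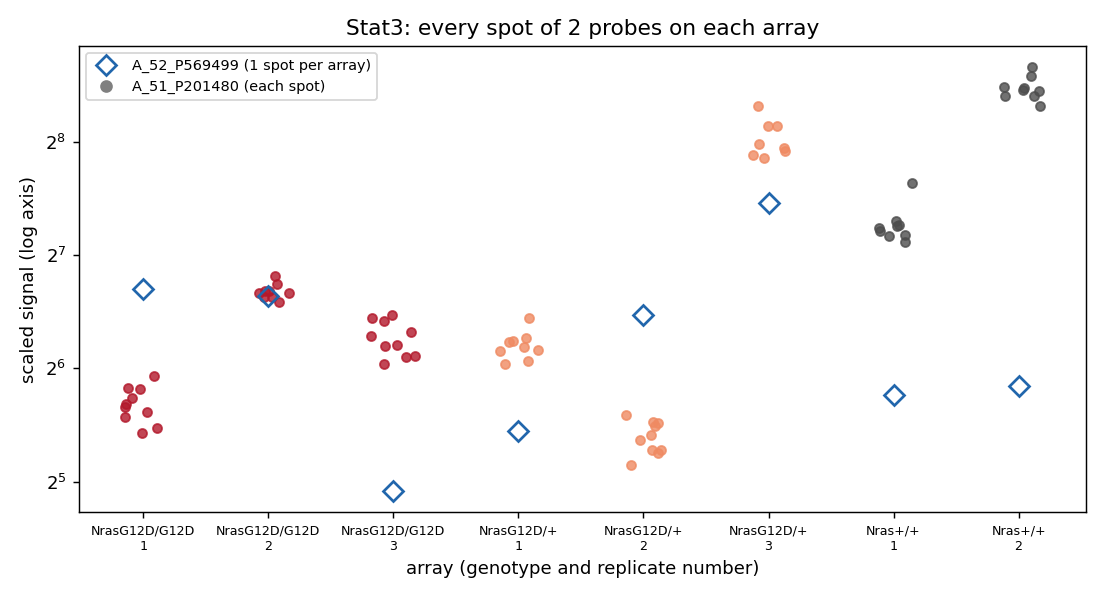
Scaled signal (log axis) of every usable spot of Stat3 probe A_51_P201480 (filled circles) and of the single spot of probe A_52_P569499 (open diamonds) on each array, by genotype and replicate number. Spots of an array lie close together (median SD 0.15, log2) while arrays of 1 genotype differ widely, and the probes do not order the arrays alike.

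The second Stat3 probe, A_52_P569499, gave another order. It had 104, 99.3 and 30.2 in NrasG12D/G12D, 43.5, 88.8 and 176 in NrasG12D/+, and 54.4 and 57.4 in Nras+/+. The Nras+/+ arrays were nearly alike and lay inside the range of both mutant genotypes. Its log2 change was 0.28 (SE 0.89, adjusted p = 0.938) in NrasG12D/G12D and 0.65 (SE 0.89, adjusted p = 0.864) in NrasG12D/+ against Nras+/+, the opposite sign to the first probe in both. Within slide 1 the change in NrasG12D/+ was 0.15, and with the slide as a block NrasG12D/G12D against Nras+/+ turned to -1.22. Between the mutant genotypes, both Stat3 probes lay below 0, at -0.33 (SE 0.83) and -0.37 (SE 0.80), and within slide 2 the second stood at -1.38. The 2 probes of the gene disagree, and no direction is given for Stat3 as a gene.

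Jak1, a kinase shared by many cytokine receptors, was measured on all arrays by probe A_52_P106463. Its scaled signal was 21.6 in NrasG12D/G12D replicate 3, 9.36, 26.9 and 48.5 in NrasG12D/+, and 39.4 and 67 in Nras+/+. On NrasG12D/G12D replicates 1 and 2 the spot was bright but carried the scanner's outlier flag and was set missing, so the fit used 1 array of that genotype. The log2 change was -1.25 (SE 1.28, adjusted p = 0.796) in NrasG12D/G12D and -1.16 (SE 0.95, adjusted p = 0.817) in NrasG12D/+ against Nras+/+. When outlier spots were kept, a setting added after seeing the data, the missing values were 45.8 and 96.3, and the change in NrasG12D/G12D was -0.17 against Nras+/+ and 0.99 against NrasG12D/+, where it had been -0.10. Within slide 1 the change in NrasG12D/+ against Nras+/+ was -1.70, and the block gave -2.87 for NrasG12D/G12D. Within slide 2 the change in NrasG12D/G12D against NrasG12D/+ was -1.17.

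A further Jak1 probe, A_51_P256642, was well above background on no array (1.13 to 3.28). The opposite-strand probe A_52_P577180 had 1.57, 3.04 and 8.95 in NrasG12D/G12D, 5.35, 6.91 and 17.6 in NrasG12D/+, and 12.7 and 8.81 in Nras+/+. It was well above background on no NrasG12D/G12D array, on 2 of NrasG12D/+ and on 1 of Nras+/+. Its log2 change in NrasG12D/G12D was -1.60 against Nras+/+ (SE 0.94, adjusted p = 0.718) and -1.31 against NrasG12D/+ (SE 0.84, adjusted p = 0.821). Measured against the lowest signal well above background, the difference from Nras+/+ came to 1.0-fold, which leaves no size. With the slide as a block the change against Nras+/+ was -3.13 (adjusted p = 0.553), and within slide 2 that against NrasG12D/+ was -2.33. In NrasG12D/+ against Nras+/+ the pooled change was -0.29 and that within slide 1 was -0.80.

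Jak2, a kinase of several receptors for blood cell growth factors, had 6.45, 11.4 and 13 in NrasG12D/G12D with probe A_51_P483231, 23.4, 10.6 and 12.2 in NrasG12D/+, and 15.1 and 15.7 in Nras+/+. The NrasG12D/G12D arrays all lay below the Nras+/+ arrays, and the NrasG12D/+ arrays lay on both sides of them. Against Nras+/+ this gave a log2 change of -0.65 in NrasG12D/G12D (SE 0.73, adjusted p = 0.810) and -0.09 in NrasG12D/+ (SE 0.73, adjusted p = 0.978). The probe was well above background on 1, 2 and 1 arrays of NrasG12D/G12D, NrasG12D/+ and Nras+/+. With the slide as a block the NrasG12D/G12D change was -0.29, and within slide 1 the NrasG12D/+ change was 0.03. Against NrasG12D/+, NrasG12D/G12D stood at -0.56 pooled and -0.32 within slide 2. A second Jak2 probe, A_52_P309376, was well above background on Nras+/+ replicate 2 alone, at 15.6.

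**Figure D3:**
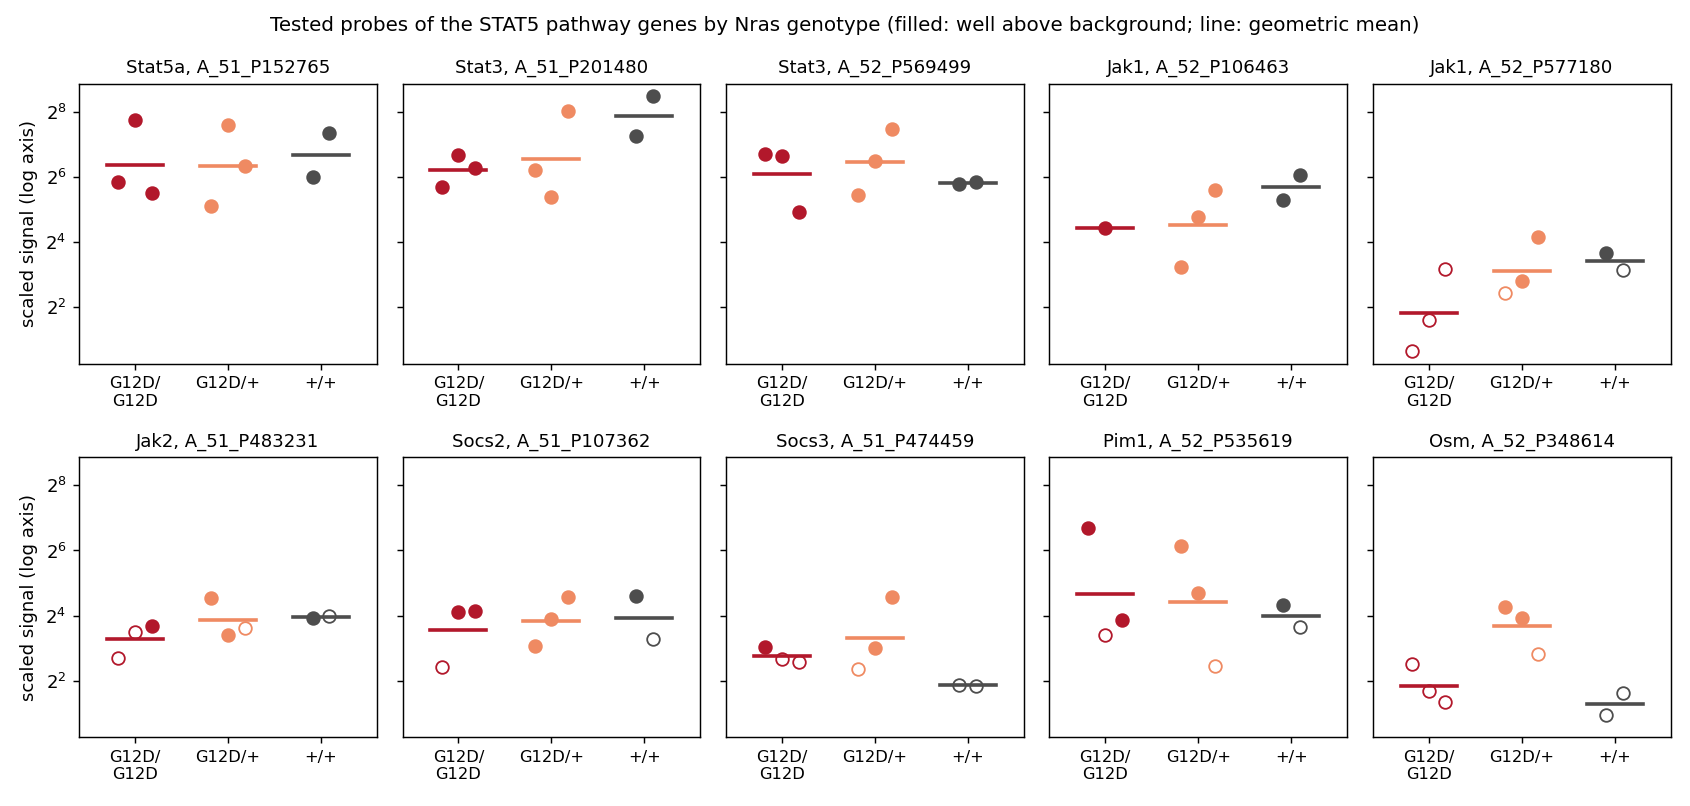
Scaled signal (log axis) of the 10 tested probes on each array, with NrasG12D/G12D left, NrasG12D/+ in the middle and Nras+/+ right; filled points were well above background, open points were not, and lines are geometric means. Osm points are filled in NrasG12D/+ alone, and the Stat3 A_51_P201480 points of NrasG12D/G12D all lie below those of Nras+/+.

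Among the feedback inhibitors, Cish, the STAT5 target that carries 2 motif copies at its start, could not be followed. Its single probe A_51_P470715, at chr9:107159966-107160025, was well above background on no array, with scaled signals between 1.25 and 3.35. On 7 of the 8 arrays the value was the surrogate that the software writes for spots near background. Cish was below what this probe could measure in all 3 genotypes.

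Socs2, a STAT5 target that also dampens growth hormone signalling, had 5.34, 17.3 and 17.7 in NrasG12D/G12D with probe A_51_P107362, 8.43, 14.9 and 23.8 in NrasG12D/+, and 24.5 and 9.64 in Nras+/+. All 3 groups overlapped. In limma the log2 change was -0.38 in NrasG12D/G12D (SE 0.88, adjusted p = 0.907) and -0.09 in NrasG12D/+ (SE 0.88, adjusted p = 0.982) against Nras+/+, and both signs turned under other scalings. Within slide 1 the NrasG12D/+ change was -0.46, and with the slide as a block the NrasG12D/G12D change was -1.47. For NrasG12D/G12D against NrasG12D/+ it was -0.29 pooled and -1.01 within slide 2. The other Socs2 probe, A_52_P84037, 24260 bases away, was well above background on no array.

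Socs3, an inhibitor induced mainly through Stat3 and acting on gp130 receptors, had 8.24, 6.31 and 5.94 in NrasG12D/G12D, 5.13, 8.1 and 24 in NrasG12D/+, and 3.68 and 3.61 in Nras+/+. Every mutant array lay above both Nras+/+ arrays. The log2 change was 0.89 in NrasG12D/G12D (SE 0.82, adjusted p = 0.776) and 1.45 in NrasG12D/+ (SE 0.82, adjusted p = 0.816, unadjusted 0.109). The probe was well above background on 1 NrasG12D/G12D array, 2 NrasG12D/+ arrays and no Nras+/+ array. Socs3 thus met the filter of at least 2 arrays only through mutant arrays, where it was high. Its lack of overlap and its p-values against Nras+/+ are tied to the filter and are no support for a difference. The mutant means did not exceed the lowest signal well above background averaged over both control arrays, so no fold is given. The sign turned in both with normexp background correction (-0.11 and -0.18). That setting adds an offset of 50 to every signal, which draws changes of dim probes toward 0. Before scaling, the processed signals of this probe were only 2.14 to 15.8. Within slide 1 the change in NrasG12D/+ was 0.82, and with the slide as a block that of NrasG12D/G12D was -1.0. Set against NrasG12D/+, NrasG12D/G12D stood at -0.56 pooled and -1.83 within slide 2.

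Osm, a cytokine of the interleukin 6 family and a known STAT5 target in mouse blood cells, was the member with the lowest unadjusted p. Probe A_52_P348614, at chr11:4139500-4139559, had 5.7, 3.22 and 2.53 in NrasG12D/G12D, 19, 15.2 and 7.13 in NrasG12D/+, and 1.95 and 3.06 in Nras+/+. The NrasG12D/+ arrays lay above all 5 other arrays. The log2 change in NrasG12D/+ was 2.38 against Nras+/+ (SE 0.77, unadjusted p = 0.0134, adjusted p = 0.816 in limma). In NrasG12D/G12D it was -1.82 against NrasG12D/+ (SE 0.69, unadjusted p = 0.0274, adjusted p = 0.788) and 0.56 against Nras+/+ (SE 0.77, adjusted p = 0.843), so neither difference passed over all probes. This was the 1 probe counted above at an unadjusted p under 0.05 in each comparison with NrasG12D/+. It met the filter of at least 2 arrays only through NrasG12D/+, where it was high. Its unadjusted p-values against that group are thus tied to the filter and are no support for a difference.

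The size of the Osm difference is not bounded, since the probe was well above background on NrasG12D/+ replicates 1 and 2 alone. With Nras+/+ and NrasG12D/G12D raised to the lowest signal well above background, the NrasG12D/+ mean was 1.13-fold and 1.21-fold theirs. That mean includes replicate 3 at 7.13, below the lowest signal well above background on its array, 15.0. These folds are therefore no lower bounds. NrasG12D/+ replicates 1 and 2 were also the arrays with the largest share of spots well above background, 41.0% and 42.4%, against 26.0% to 36.0% on the others. The part of this in the Osm values was not tested. With normexp background correction the change in NrasG12D/+ against Nras+/+ was -0.11 (offset 50, processed signals of the probe before scaling 1.81 to 34.8). Within slide 1 it was 2.80 (adjusted p = 0.571), and within slide 2 NrasG12D/G12D stood at -0.99 against NrasG12D/+. With the slide as a block NrasG12D/G12D stood at 1.81 against Nras+/+, with neither group well above background. The neutrophil marker sum was 13846 on NrasG12D/+ replicate 1, 107 on replicate 2 and 176 on replicate 3. On these arrays 4, 4 and 2 of the 10 markers were well above background. The part of the sum in the Osm values was not tested. The second Osm probe, A_51_P291361, was well above background on no array and had its highest signal, 11.4, on an NrasG12D/G12D array.

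Pim1, a STAT5-induced kinase that promotes survival, has a probe on its own strand, A_52_P530291, which was well above background on no array (2.26 to 5.55). The opposite-strand probe A_52_P535619, 2054 bases away, was measured on 5 arrays and varied more than any other tested probe of these genes. It had 103, 10.6 and 14.6 in NrasG12D/G12D, 70.1, 26.1 and 5.48 in NrasG12D/+, and 20.1 and 12.5 in Nras+/+. A single array stood high in each mutant genotype, and all groups overlapped. In limma the log2 change was 0.67 (SE 1.29, adjusted p = 0.889) in NrasG12D/G12D and 0.44 (SE 1.29, adjusted p = 0.938) in NrasG12D/+ against Nras+/+. Within slide 1 the NrasG12D/+ change was 1.43, and the block gave 3.63 for NrasG12D/G12D (adjusted p = 0.561). The change in NrasG12D/G12D against NrasG12D/+ was 0.23 pooled and 2.20 within slide 2. Pim1 mRNA was thus not measurable with the own-strand probe.

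**Figure D4:**
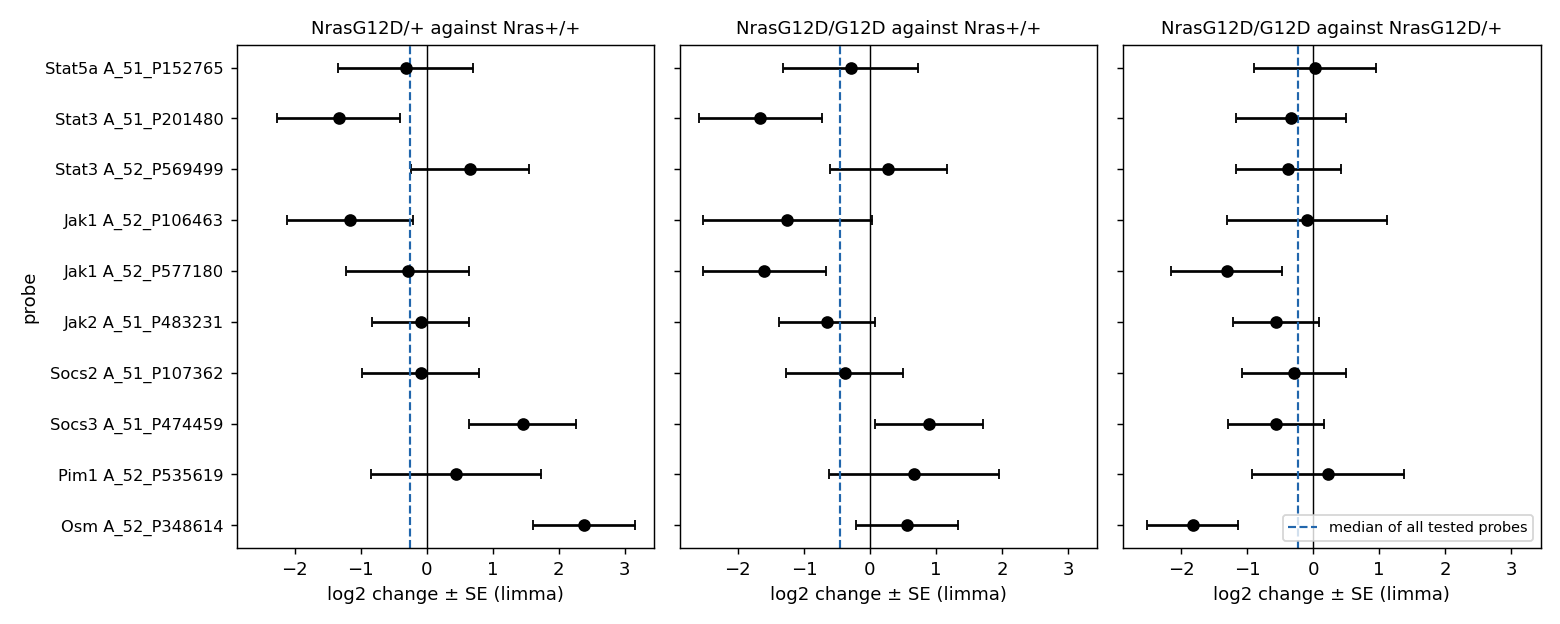
Log2 change with its standard error (limma) of the 10 tested probes in each comparison, with 0 as a solid line and the median of all tested probes (-0.25, -0.46 and -0.22) as a dashed line. Osm in NrasG12D/+ against Nras+/+ stands at 2.38, with the probe well above background on no Nras+/+ array, and no probe passed the adjusted threshold.

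The wider pathway was read from lists of ligands, receptors, other kinases and STATs, inhibitors and phosphatases, and other STAT5 or STAT3 targets, with the brightest probe taken per gene. Of these genes 53 could be tested, and 0 passed in any comparison. In NrasG12D/+ against Nras+/+, 18 had a higher and 35 a lower mean, where 42.2% of all probes had a higher mean. For NrasG12D/G12D the counts were 20 higher and 33 lower against Nras+/+, where 35.4% of all probes were higher, and 28 higher and 25 lower against NrasG12D/+, where 41.2% were. Among inhibitors and phosphatases, 10 of 11 had a lower mean in NrasG12D/+ than in Nras+/+, with a median of -0.86, or -0.61 relative to all probes, and 0 of the 11 reached an unadjusted p under 0.05. In NrasG12D/G12D, 8 of the 11 had a lower mean than in Nras+/+, with a median of -0.55, or -0.10 relative to all probes, and 7 of the 11 had a higher mean than in NrasG12D/+, with a median of 0.21. For 9 ligands the median was -0.55 in NrasG12D/+ and -0.13 in NrasG12D/G12D against Nras+/+, and for 11 receptors it was -0.24 and -0.61 in the same order. The 5 other kinases and STATs had medians of 0.40 and -0.01, and the 17 other targets -0.03 and -0.14.

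At an unadjusted p under 0.05, 0 of the 53 genes stood out in NrasG12D/+ against Nras+/+, 3 in NrasG12D/G12D against Nras+/+ and 4 in NrasG12D/G12D against NrasG12D/+, where 4.71%, 6.55% and 6.01% of all probes did, so these counts lay near the background. Clcf1, a ligand of gp130 receptors, had 30.5, 71.2 and 287 in NrasG12D/G12D, 21.2, 255 and 21.2 in NrasG12D/+, and 7.24 and 10.48 in Nras+/+. It was well above background on no Nras+/+ array, and the mean of the NrasG12D/G12D arrays was at least 7.61-fold higher (log2 change 3.29, SE 1.31, adjusted p = 0.711 in limma). That bound holds for the means of these arrays and leaves out the spread between them. All 3 NrasG12D/+ arrays also lay above the Nras+/+ arrays for Clcf1. Clcf1 met the filter only through mutant arrays, where it was high, so its place among the 3 genes counted above is tied to the filter.

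Stat4, the STAT of interleukin 12 signalling, had 69.6, 262 and 214 in NrasG12D/G12D, against 7.66, 40.1 and 34.4 in NrasG12D/+ (log2 change 2.84, SE 0.96, adjusted p = 0.788). The Nras+/+ arrays stood at 151 and 33.9. Stat4 is also a gene of T and NK cells, and the summed scaled signal of 8 T and NK cell markers was 1381, 2305 and 417 in NrasG12D/G12D, 1334, 165 and 307 in NrasG12D/+, and 479 and 538 in Nras+/+. Of these markers Cd3e and Cd4 were well above background on all 8 arrays, Klrb1c on 6, Cd3g on 5, Cd8a on 2, Nkg7 on 1, and Cd3d and Gzma on none. Per array, 2, 5 and 3 were in NrasG12D/G12D, 4, 5 and 4 in NrasG12D/+, and 3 and 4 in Nras+/+, so the sums did not follow these counts. The part of the markers in the Stat4 values was not tested. Id1, a target of STAT5 and of BMP signalling, had 1.96, 3.83 and 2.44 in NrasG12D/G12D, against 17.2, 14.2 and 3.99 in NrasG12D/+ (log2 change -1.91, SE 0.76, adjusted p = 0.788). Like Osm, it was well above background on NrasG12D/+ replicates 1 and 2 alone, and no fold is given for it. Id1 thus met the filter only through the group where it was high, so its place among the 4 genes counted above is tied to the filter. Ptpn11, the phosphatase SHP2, and the cyclin gene Ccnd1 had log2 changes of -3.35 (SE 0.85) and -3.04 (SE 0.90) in NrasG12D/G12D against Nras+/+ (adjusted p = 0.711 for both), and of -2.45 and -2.04 against NrasG12D/+. For both genes the NrasG12D/G12D arrays lay below all 5 other arrays. Within slide 2, the 3 NrasG12D/G12D arrays against the 1 NrasG12D/+ array gave 2.19 for Stat4, -0.60 for Id1, -2.81 for Ptpn11 and -3.26 for Ccnd1, and no slide allows this for NrasG12D/G12D against Nras+/+.

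Patterns across the arrays were compared for the 4 probes measured on every array, as a description without a test, since the arrays share 1 scaling and genotype structure. Among 6185 candidate probes, the one most like Stat5a over 8 arrays was Gemin4 (Pearson r = 0.97), followed by Apeh (0.97) and Krt83 (0.96). The Stat3 probe A_51_P201480 was most like AK089378 (0.99), Nudt4 (0.97) and Myog (0.97). The other Stat3 probe was most like Sesn2 (0.96), Tas1r1 (0.91) and X83328 (0.89), so the lists of the Stat3 probes share no gene. Over the 6 arrays with a value, Jak1 A_52_P106463 was most like Arhgef6 (0.998), Mbtps2 (0.997) and Ms4a1 (0.995).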

How the data were processed

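Per the file headers, the scanner files are output of Agilent Feature Extraction 10.5.1.1. The processed signal is an intensity on a linear scale, background-subtracted and detrended by the authors' scanner software and not scaled between arrays, per the file headers. Uncorrected intensities of each spot and its surroundings were deposited too and served 1 alternative, and the detection and outlier flags are deposited as scores of 0 or 1. The deposited value table is a ratio, which equalled the processed signal over each array's median within a relative 1.7e-06.

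Each array held 43379 non-control spots. No spot was saturated, and those that carried an outlier flag, 120 to 464 on an array, were set missing. The log2 signals of a probe's spots were averaged, and arrays were brought to a common 75th percentile, taken over 6576 probes that were well above background on every array. Probes well above background on at least 2 arrays (18411) were tested, each on its own, with limma 3.58.1 (lmFit, eBayes, two-sided, 3 groups, R 4.3.3), after the procedure was tested on simulated data. Adjustment was by Benjamini-Hochberg across all probes tested. Where no array of a group was well above background, a fold divides the mean of the brighter group by a mean for the dimmer one. In the latter each array enters with its lowest signal that was well above background, or with the probe's signal if higher. The fold is a lower bound for these means (at least N-fold) only where every brighter array was well above background. It leaves out the spread between arrays. Precision is limited by the number of arrays, with a median SE over all probes of 0.97 in each comparison with Nras+/+ and 0.87 between the mutant genotypes.

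The rule named every member probe, and of other pathway genes at most 3 per direction and comparison, with the largest change at an unadjusted p under 0.05 and groups that do not overlap. The members and lists were chosen with earlier results of these data known. Alternatives changed the scaling, background correction, filter, slide and replicate blocks, samples in the fit, probe per gene and source of values, and left out each array. The alternative background correction, normexp, added an offset of 50 to each signal before the logarithm. Keeping outlier spots was added after seeing the data.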

Additional observations from a re-analysis of the deposited data

How the results depend on the processing

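No member probe passed the threshold in any setting. The lowest adjusted p was 0.543, for Stat3 A_51_P201480 in NrasG12D/G12D against Nras+/+ with the slide as a block. Of 356 member values under other settings, 320 kept their sign and 36 turned, and of 158 values leaving out 1 array, 26 turned. The cause of these turns was not tested. Under normexp the offset of 50 draws changes of dim probes toward 0, so the sign of such values says little. In NrasG12D/+ against Nras+/+, Jak2 turned to 0.08 with the percentile over all probes, 0.19 with scaling to the median, 0.05 with quantile normalization, 0.09 with the value table, 0.03 with the slide block and 0.03 within slide 1. Socs2 turned there to 0.07 with the percentile over all probes, 0.18 with scaling to the median, 0.15 with quantile normalization and 0.09 with the value table. With normexp, Osm turned there to -0.11, Pim1 A_52_P535619 to -0.01 and Socs3 to -0.18. In NrasG12D/G12D against Nras+/+, Socs2 turned to 0.11 with the percentile over all probes, 0.21 with quantile normalization and 0.25 with the value table. Stat5a turned there to 0.20 with the percentile over all probes, 0.01 with scaling to the median and 0.34 with the value table. With normexp, Osm was -0.25 and Socs3 -0.11, and with the slide block Socs3 was -1.0 and Stat3 A_52_P569499 -1.22. Between the mutant genotypes, Jak1 A_52_P106463 turned to 0.17 with the percentile over all probes, 0.08 with quantile normalization, 0.15 with normexp, 0.34 with the value table and 0.99 with outlier spots kept. Socs2 turned there to 0.03, 0.06, 0.16 and 0.16 under the first 4 of these settings. With normexp, Jak1 A_52_P577180 and Socs3 both turned to 0.07, and with the value table Stat3 A_51_P201480 turned to 0.12 and Stat3 A_52_P569499 to 0.07.

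When each array was left out in turn, changes in NrasG12D/+ against Nras+/+ ran from -1.0 to 0.36 for Stat5a, -0.80 to 0.06 for Jak1 A_52_P577180, -0.44 to 0.13 for Jak2, -0.77 to 0.58 for Socs2 and -0.41 to 1.43 for Pim1 A_52_P535619 (opposite strand). In NrasG12D/G12D against Nras+/+ they ran from -0.98 to 0.39 for Stat5a, -0.03 to 0.86 for Stat3 A_52_P569499, -1.06 to 0.29 for Socs2 and -0.35 to 1.29 for Pim1 A_52_P535619. Between the mutant genotypes they ran from -0.66 to 0.65 for Stat5a, -0.91 to 0.41 for Stat3 A_51_P201480, -0.88 to 0.21 for Stat3 A_52_P569499, -0.75 to 0.44 for Jak1 A_52_P106463, -0.68 to 0.28 for Socs2, -1.04 to 0.07 for Socs3 and -0.79 to 1.08 for Pim1 A_52_P535619. Where 1 Nras+/+ array remained, it was assumed to vary like the other groups.

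Over all probes, 0 passed in each comparison, with 866 at an unadjusted p under 0.05 in NrasG12D/+ against Nras+/+, 1200 in NrasG12D/G12D against Nras+/+, and 1102 in NrasG12D/G12D against NrasG12D/+. For NrasG12D/+ against Nras+/+ the count was 1 with the value table and 1 with no filter on dim probes, and 0 to 11 leaving out 1 array, with the 11 lacking Nras+/+ replicate 2. For NrasG12D/G12D against Nras+/+ it was 3 with quantile normalization, 2 with no filter, 1 with the slide block, 1 with the 2 groups alone, and 0 to 10 leaving out 1 array, with the 10 lacking Nras+/+ replicate 2. Between the mutant genotypes it was 8 with the slide block and 0 to 2 leaving out 1 array, with the 2 lacking NrasG12D/+ replicate 2. Deviations of same-numbered arrays from their group means correlated between -0.10 and 0.09. With groups of 2 or 3 arrays such correlations constrain each other, so they cannot decide whether replicate numbers pair the samples. With the replicate block, 0 probes passed in each comparison (1182, 1347 and 1112 at an unadjusted p under 0.05), and Osm in NrasG12D/+ against Nras+/+ was 2.72.

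Signal over background is a limit: Cish, Stat5b and the own-strand Pim1 probe gave no comparison, and Socs3 and Osm were near background on most arrays.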
